A study of Mus musculus with 12 samples.

Results

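The genes described here are 10 of the transforming growth factor beta (TGF-beta) pathway: the ligands Tgfb1, Tgfb2 and Tgfb3, the receptors Tgfbr1, Tgfbr2 and Tgfbr3, the latency protein Ltbp1, and Tgfbi, Smad7 and Skil, which the pathway induces. They were taken by symbol from the platform annotation, and 10 of 22180 named genes were found. Each had 1 probe set that carried its symbol alone, and all 10 passed the filter on dim genes that left 16635 genes to test. Mice received azoxymethane, a carcinogen, together with the colitis-inducing agent dextran sulfate sodium (the AOM/DSS protocol), and developed colorectal tumors. Their genotype was Stat3dm, in which Stat3 is conditionally deleted in myeloid cells, or wild type, labelled Stat3wt. From paraffin-embedded tumors of both genotypes, stroma and tumor areas were isolated by laser capture, which gave 4 groups of 3 samples: Stat3dm stroma, Stat3wt stroma, Stat3dm tumor and Stat3wt tumor. Every group therefore carried AOM/DSS-induced tumors, and no colon without a tumor was analysed here. A sample is a pool from 2 tumors of the same mouse. The sources used here do not give the driver of the deletion, the age and sex of the mice, or how areas were chosen for capture. The deletion was restricted to myeloid cells, so the other cells of a Stat3dm sample keep the gene. STAT3 is the transcription factor downstream of interleukin-6 family cytokines and of interleukin-10, and the question behind the design was which stromal differences follow from its loss in myeloid cells.

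TGF-beta ligands are secreted in a latent form, held in a complex by their own propeptide and tethered to the matrix by latent TGF-beta binding proteins such as Ltbp1. Once released, they bind the type II receptor Tgfbr2, which recruits and phosphorylates the type I receptor Tgfbr1, while the co-receptor Tgfbr3 (betaglycan) presents ligand. Tgfbr1 phosphorylates Smad2 and Smad3, which enter the nucleus with Smad4 and switch on target genes. Among these targets are the matrix protein gene Tgfbi and the feedback inhibitors Smad7, which blocks the type I receptor, and Skil, which represses Smad complexes. In the intestine the pathway restrains epithelial growth, and in stroma it drives fibroblasts to deposit matrix and dampens immune cells.

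Expression was measured on 1 single-colour Affymetrix array per sample as log2 signals computed by robust multi-array average (RMA). Array medians were between 4.20 and 4.43, and the SD of all values on an array was between 1.60 and 1.91. Replicate 3 was the array of widest spread in each of the 4 groups. Arrays of 1 group correlated at 0.881 to 0.967 across the genes tested, and 0 of 66 pairs of arrays held identical values. The deleted gene, Stat3, gave 7.35, 7.32 and 7.40 in Stat3dm stroma and 6.72, 7.33 and 8.02 in Stat3wt stroma. Stat3 tumor signals were 7.08, 7.28 and 7.97 in Stat3dm mice and 7.48, 7.43 and 8.22 in Stat3wt mice, so the genotypes overlapped in both tissues and the signal of this gene did not separate the labels. Whether the probes lie in the deleted part of the gene was not known here. The captured areas differed in the direction of their labels: the 10 epithelial markers all had lower means in stroma over both genotypes, and 5 of them passed the test, among them Epcam, the epithelial adhesion molecule. Epithelial markers were still measured in stroma, with a list mean of 7.42 to 8.83 in Stat3dm stroma and 7.79 to 8.11 in Stat3wt stroma, against 8.71 to 9.55 in Stat3dm tumor and 8.71 to 9.42 in Stat3wt tumor. The labels do not say that the 3 samples of a group are from different mice, so p-values measure the spread between these samples. In such bulk samples fewer cells of a type and less RNA per cell cannot be told apart.

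Of the 10 genes, Tgfbi alone passed the test in any of the 7 comparisons: it was 1.81-fold higher in stroma than in tumor over both genotypes, a call that held in 10 of 23 alternative settings. The ligand Tgfb1 and the co-receptor Tgfbr3 had higher means in stroma in both genotypes, but neither passed. None of the 10 genes passed between Stat3dm and Stat3wt in stroma, in tumor or over both tissues. In tumor, 8 of the 10 had lower means in Stat3dm mice, though for Tgfb1 and Tgfb3 the sign depended on the setting. Smad7 had the largest difference there, at 2.09-fold. The plot of levels by group shows all 12 values of each gene.

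**Figure D1:**
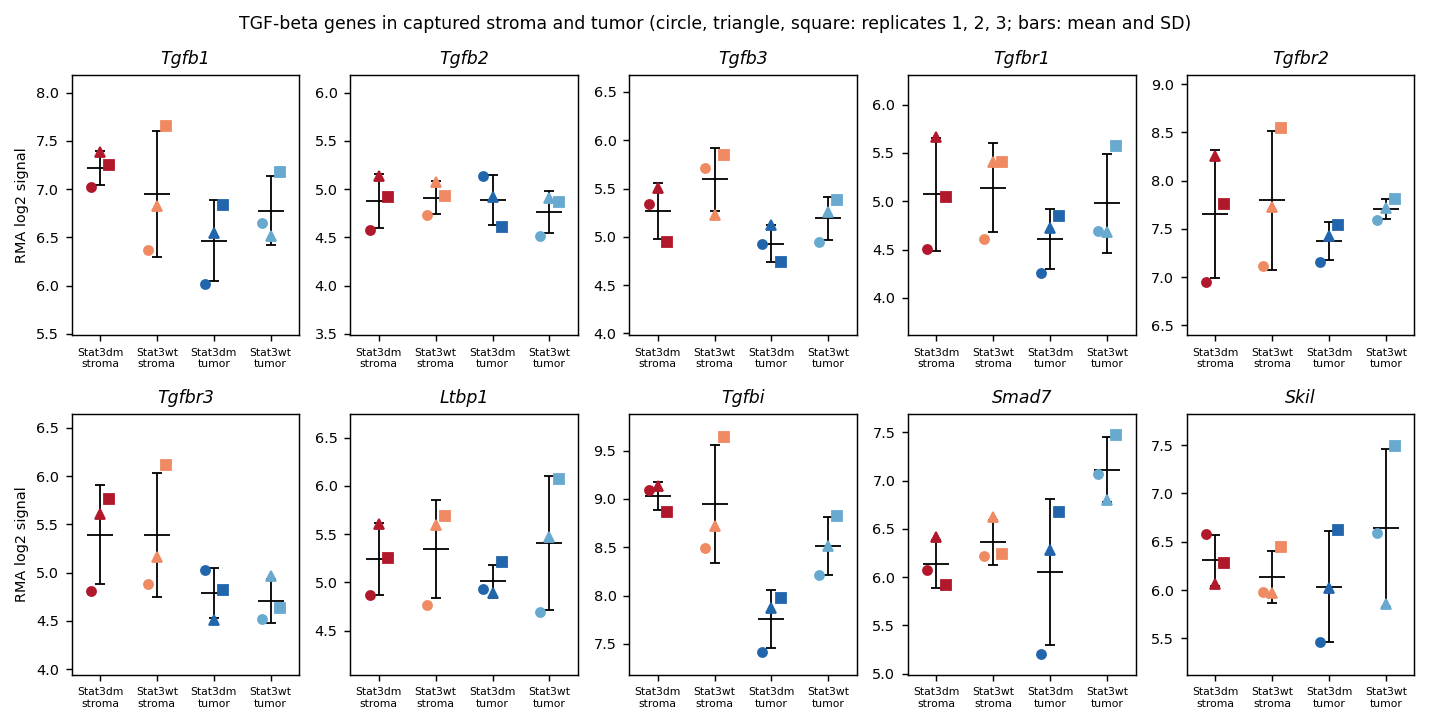
RMA log2 signal (vertical axes, centred per gene and of equal span) of the 10 TGF-beta genes in the 4 groups. Circle, triangle and square mark replicates 1, 2 and 3, and bars the mean and SD. Tgfbi in Stat3dm tumor (7.42 to 7.98) lies below every array of the other groups, and Smad7 in Stat3wt tumor (6.80 to 7.48) lies above every array of the other groups. The share of all genes with such a separation was not counted.

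Promoters are shown for Tgfb1 and Tgfbi, the pair of members whose signals followed each other most closely. Their Pearson r over the 12 arrays was 0.867, and 0.904 after each group's mean was subtracted, given as a description, since within groups the signals of both genes also followed the spread of the array. The 250 bases before the annotated start are printed 5′ to 3′ from the RefSeq promoter table of build GRCm38.p6. Tgfb1 lies on the plus strand at chr7:25686752-25687001 and Tgfbi on the plus strand at chr13:56609336-56609585. Capitals mark the GC box, GGGCGG or its reverse complement, a motif bound by factors of the Sp1 family.
Tgfb1: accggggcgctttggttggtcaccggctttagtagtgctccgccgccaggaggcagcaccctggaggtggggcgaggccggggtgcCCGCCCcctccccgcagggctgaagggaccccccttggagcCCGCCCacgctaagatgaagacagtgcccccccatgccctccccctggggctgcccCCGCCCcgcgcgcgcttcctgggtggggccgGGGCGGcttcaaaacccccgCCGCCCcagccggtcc
Tgfbi: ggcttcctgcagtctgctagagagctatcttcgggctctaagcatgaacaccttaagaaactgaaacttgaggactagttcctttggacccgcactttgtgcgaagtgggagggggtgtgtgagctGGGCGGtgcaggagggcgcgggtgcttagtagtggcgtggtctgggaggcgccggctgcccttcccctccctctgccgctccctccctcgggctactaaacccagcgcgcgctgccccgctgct
The Tgfb1 promoter held 5 GC boxes and the Tgfbi promoter 1. The table gave 8 promoters for 6 of the 10 genes (Tgfb1, Tgfb2, Tgfbr1, Tgfbr2, Tgfbi and Ltbp1), and 3 of the 8 held a GC box, against 32.7% of all 32851 promoters of this length. The other motifs were likewise searched on both strands. The Smad-binding CAGACA was found in 3 of the 8 (of Ltbp1, Tgfb2 and Tgfbr1), against 17.1% of all. The palindromic Smad box GTCTAGAC and the STAT motif TTCNNNGAA were found in 0 of the 8, against 0.167% and 7.02% of all. CAGACA and GTCTAGAC have the letters AGAC in common, and neither contains the other.

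Tgfb1 encodes the main TGF-beta ligand of immune cells and of stroma. Its log2 signals were 7.03, 7.38 and 7.25 in Stat3dm stroma and 6.37, 6.83 and 7.65 in Stat3wt stroma. Tgfb1 tumor signals were 6.02, 6.54 and 6.84 in Stat3dm mice and 6.64, 6.51 and 7.18 in Stat3wt mice. All 3 Stat3dm stroma arrays were above all 3 Stat3dm tumor arrays, while in Stat3wt mice 2 stroma arrays lay within or below the tumor values. Stroma minus tumor was 0.75 ± 0.31 (log2, SE) in Stat3dm mice, with an adjusted p of 0.452, and 0.17 ± 0.31 in Stat3wt mice, with an adjusted p of 0.744. The Stat3dm value passed with array spread as a covariate (1.02, adjusted p = 0.0262). The Stat3wt value was -0.18 without stroma replicate 3 and 0.46 without stroma replicate 1, and 0.82 with that covariate (adjusted p = 0.314). The mean of both genotypes was 0.46, with a 95% confidence interval of -0.01 to 0.93 and an adjusted p of 0.230. That difference passed with quantile normalization of the arrays (0.68, adjusted p = 0.0486) and with array weights (0.51, adjusted p = 0.0301). It also passed with the spread of the array as a covariate (0.92, adjusted p = 0.0151), though that spread itself ran higher in tumor. Group means ran from Stat3dm stroma (7.22 ± 0.18, SD, n = 3) through Stat3wt stroma (6.95 ± 0.65) and Stat3wt tumor (6.78 ± 0.35) to Stat3dm tumor (6.47 ± 0.42), and no gap between neighbours exceeded the pooled SD of 0.43.

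Tgfb2 and Tgfb3 encode the other two ligands, both well known from development. Tgfb2 log2 signals were 4.58, 5.14 and 4.92 in Stat3dm stroma and 4.73, 5.08 and 4.92 in Stat3wt stroma. Tgfb2 tumor signals were 5.13, 4.92 and 4.61 in Stat3dm mice and 4.52, 4.90 and 4.87 in Stat3wt mice. All 4 groups overlapped and their means lay between 4.76 and 4.91, the narrowest range of the 10 genes over the 12 arrays (0.62). Tgfb3 log2 signals were 5.34, 5.51 and 4.95 in Stat3dm stroma and 5.71, 5.23 and 5.85 in Stat3wt stroma. Tgfb3 tumor signals were 4.93, 5.12 and 4.74 in Stat3dm mice and 4.95, 5.26 and 5.38 in Stat3wt mice. Tissues overlapped in both genotypes, and stroma minus tumor over both genotypes was 0.37 ± 0.16 (SE), with an adjusted p of 0.194. Neighbouring group means of Tgfb3 differed by at most 0.33, between Stat3wt stroma (5.59 ± 0.33) and Stat3dm stroma (5.27 ± 0.29), a gap that the interval of the genotype difference in stroma, -0.81 to 0.16, does not separate from 0.

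The signalling receptor Tgfbr2 gave log2 signals of 6.95, 8.26 and 7.76 in Stat3dm stroma and 7.12, 7.72 and 8.55 in Stat3wt stroma. Tgfbr2 tumor signals were 7.16, 7.43 and 7.54 in Stat3dm mice and 7.59, 7.72 and 7.81 in Stat3wt mice. The tumor groups did not overlap, with all 3 Stat3dm arrays lower, but the difference was -0.33 ± 0.34 (SE) with an adjusted p of 0.840. Spread was uneven for Tgfbr2: the SD was 0.66 in Stat3dm stroma and 0.72 in Stat3wt stroma, against 0.20 in Stat3dm tumor and 0.11 in Stat3wt tumor. Its type I partner Tgfbr1 gave 4.50, 5.66 and 5.05 in Stat3dm stroma and 4.61, 5.41 and 5.41 in Stat3wt stroma. Tgfbr1 tumor signals were 4.26, 4.72 and 4.85 in Stat3dm mice and 4.69, 4.68 and 5.57 in Stat3wt mice. Both tissues and both genotypes overlapped for Tgfbr1, and its 4 group means ran from 4.61 in Stat3dm tumor to 5.14 in Stat3wt stroma, with every gap between neighbours below the pooled SD of 0.48.

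The co-receptor Tgfbr3 gave log2 signals of 4.81, 5.61 and 5.77 in Stat3dm stroma and 4.88, 5.17 and 6.12 in Stat3wt stroma. Tgfbr3 tumor signals were 5.03, 4.51 and 4.82 in Stat3dm mice and 4.52, 4.96 and 4.64 in Stat3wt mice. Replicate 1 of each stroma group lay among the tumor values and the other 4 stroma arrays lay above all 6 tumor arrays. Stroma minus tumor was nearly equal in the genotypes, 0.61 ± 0.32 (SE) in Stat3dm mice and 0.68 ± 0.32 in Stat3wt mice, with adjusted p-values of 0.580 and 0.294. Over both genotypes it was 0.65, with a 95% confidence interval of 0.17 to 1.12 and an adjusted p of 0.116. Array weights (0.82, adjusted p = 0.0058) and the replicate number as a block (0.65, adjusted p = 0.0414) took this difference past the threshold, 2 of 23 alternatives. The random and fixed blocks of genotype and number did not, nor did any of 12 fits without 1 array (adjusted p = 0.0579 to 0.248). The stroma means (5.39 ± 0.51 in Stat3dm mice and 5.39 ± 0.64 in Stat3wt mice) and the tumor means (4.79 ± 0.26 in Stat3dm mice and 4.71 ± 0.23 in Stat3wt mice) differed within each tissue by less than the spread of replicates.

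Ltbp1, which anchors the latent ligand in the matrix, gave 4.87, 5.61 and 5.26 in Stat3dm stroma and 4.77, 5.59 and 5.69 in Stat3wt stroma. Ltbp1 tumor signals were 4.94, 4.89 and 5.21 in Stat3dm mice and 4.69, 5.47 and 6.07 in Stat3wt mice. All groups overlapped. Stroma minus tumor over both genotypes was 0.09 ± 0.23 (SE), with an adjusted p of 0.836, and every gap between neighbouring group means was below the pooled SD of 0.47.

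Tgfbi, a secreted matrix protein that binds integrins and collagen, gave log2 signals of 9.09, 9.13 and 8.86 in Stat3dm stroma and 8.49, 8.72 and 9.65 in Stat3wt stroma. Tgfbi tumor signals were 7.42, 7.87 and 7.98 in Stat3dm mice and 8.21, 8.51 and 8.82 in Stat3wt mice. Stat3dm tumor was the low group, below all 9 other arrays, while Stat3wt stroma and Stat3wt tumor overlapped. How many of all genes had 1 group apart from the other 9 arrays was not counted. Over both genotypes stroma exceeded tumor by 0.86 ± 0.20 (log2, SE), with a 95% confidence interval of 0.43 to 1.28 and an adjusted p of 0.0401 in limma with Benjamini-Hochberg adjustment over the 16635 genes. In that comparison 425 genes passed, 2.55% of those tested, of which 141 were higher in stroma (0.848%), and Tgfbi was the 1 member among them. Stroma minus tumor was 1.27 ± 0.28 in Stat3dm mice, 2.42-fold, with an adjusted p of 0.149, and 0.44 ± 0.28 in Stat3wt mice, with an adjusted p of 0.392. The Stat3wt value was 0.09 without stroma replicate 3 and 0.67 without stroma replicate 1, and 0.89 with array spread as a covariate, and it passed in none of these. The Stat3dm difference passed in 7 of 24 alternatives. Among them was the replicate number as a block (adjusted p = 0.0334), a fit in which 86 genes passed in place of 0. Stat3dm minus Stat3wt, taken in stroma and reduced by the same in tumor, was 0.84 with an interval of -0.01 to 1.69 and an adjusted p of 0.995, so the tissue difference was not shown to differ between genotypes. In the order of group means, Stat3dm stroma (9.03 ± 0.15, SD, n = 3) and Stat3wt stroma (8.95 ± 0.61) were closer than the pooled SD of 0.38, and Stat3wt tumor (8.51 ± 0.30) and Stat3dm tumor (7.75 ± 0.30) followed at gaps of 0.44 and 0.76.

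The call for Tgfbi lay close to the threshold. Over 23 alternatives the difference stayed between 0.68 and 1.18, and its adjusted p ran from 0.0019 to 0.117. Leaving out 1 array at a time kept the call in 2 of 12 fits: without Stat3wt stroma replicate 1 (adjusted p = 0.0369) and without Stat3dm tumor replicate 1 (adjusted p = 0.0386). Centring each array on its median (0.79, adjusted p = 0.0788), a robust variance prior with trend (adjusted p = 0.0551) and leaving out both arrays of widest spread, replicate 3 of each tumor group (0.99, adjusted p = 0.107), ended it.

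**Figure D2:**
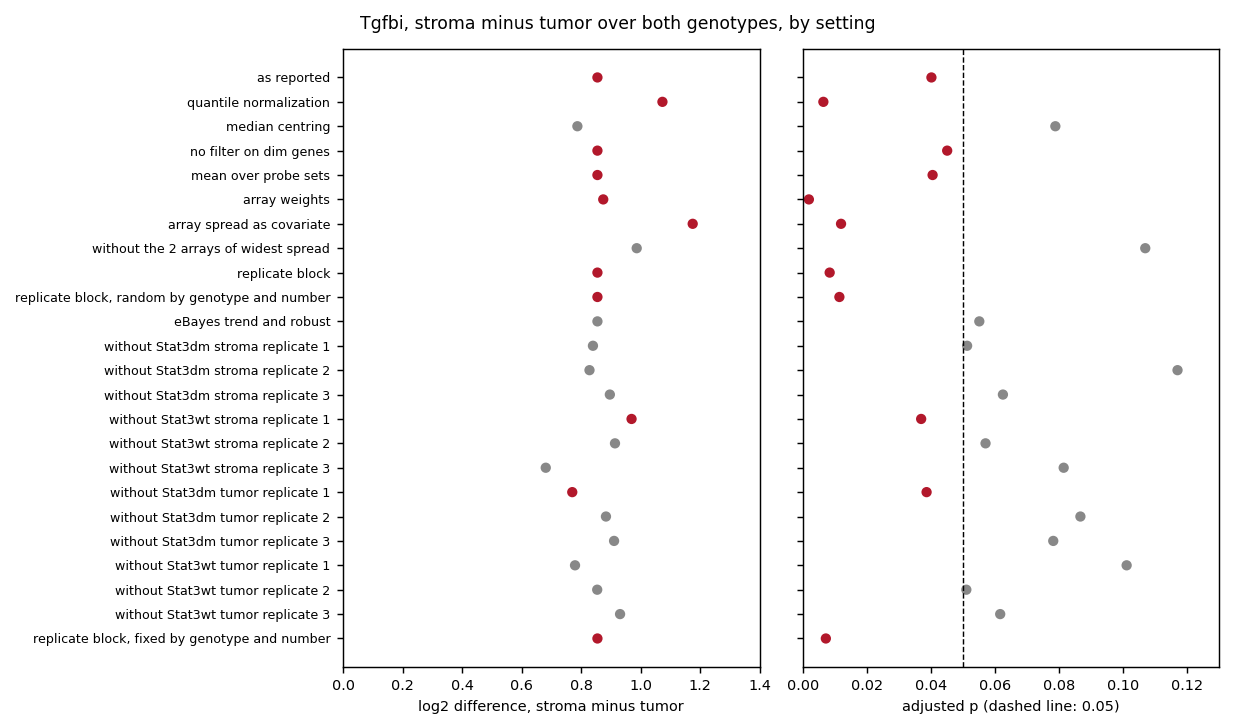
Tgfbi, stroma minus tumor over both genotypes, in the reported fit (top) and in 23 alternatives: log2 difference at left and limma adjusted p at right, where the dashed line is 0.05 and red points passed. All differences lie between 0.68 and 1.18, and the adjusted p crosses the line in both directions.

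Most markers of immune, fibroblast, endothelial and smooth muscle cells also had higher means in stroma over both genotypes. The 12 macrophage and monocyte markers, all of which passed the filter on dim genes, had list means of 6.58 to 6.95 in Stat3dm stroma and 5.59 to 7.15 in Stat3wt stroma. Their tumor means were 5.58 to 6.002 in Stat3dm mice and 5.71 to 6.31 in Stat3wt mice. Over both genotypes 10 of the 12 had higher means in stroma and 1 passed, Ccr2, the receptor that draws monocytes into tissue. The 5 pan-leukocyte markers had list means of 7.49 to 7.83 in Stat3dm stroma and 6.14 to 7.05 in Stat3wt stroma, against 5.93 to 6.21 in Stat3dm tumor and 5.68 to 6.25 in Stat3wt tumor, and all 5 passed as higher in stroma. The 11 fibroblast markers measured had list means of 7.46 to 8.53 in Stat3dm stroma and 7.65 to 8.71 in Stat3wt stroma, and of 7.12 to 7.49 in Stat3dm tumor and 7.23 to 7.85 in Stat3wt tumor. Of these, 10 had higher means in stroma and 3 passed: Dcn, Thy1 and Fbln2. The 8 endothelial markers measured had list means of 5.78 to 6.40 in Stat3dm stroma and 6.08 to 6.87 in Stat3wt stroma, against 5.603 to 5.73 in Stat3dm tumor and 5.63 to 5.75 in Stat3wt tumor. All 8 had higher means in stroma and 3 passed: Vwf, Eng and Plvap. Means were also higher in stroma for 8 of 8 smooth muscle markers, 7 of 7 T cell markers and 6 of 7 neutrophil markers, of which none passed, and for 4 of 5 B and plasma cell markers, of which Cd79b passed. The part of these cells in the levels of Tgfbi, Tgfb1 and Tgfbr3 was not tested.

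Smad7, the inhibitory Smad, gave log2 signals of 6.08, 6.41 and 5.92 in Stat3dm stroma and 6.22, 6.62 and 6.24 in Stat3wt stroma. Smad7 tumor signals were 5.21, 6.29 and 6.67 in Stat3dm mice and 7.07, 6.80 and 7.48 in Stat3wt mice. Stat3wt tumor was the high group, above all 9 other arrays, a separation whose share over all genes was not counted. The lowest value was Stat3dm tumor replicate 1. Stat3dm minus Stat3wt in tumor was -1.06 ± 0.32 (log2, SE), 2.09-fold, with a 95% confidence interval of -1.74 to -0.38 and an adjusted p of 0.427. Of 23 alternatives, array weights alone took it past the threshold (-0.83, adjusted p = 0.0458), and the difference ranged from -1.37 to -0.64. Stroma minus tumor was 0.08 ± 0.32 in Stat3dm mice and -0.75 ± 0.32 in Stat3wt mice, where all stroma arrays were below all tumor arrays, with adjusted p-values of 0.973 and 0.272. With array spread as a covariate the Stat3wt value was -0.24 (adjusted p = 0.931), and Smad7 levels followed the spread of the array within groups. Stat3wt tumor (7.12 ± 0.34, SD, n = 3) led the group means by a gap of 0.75, and Stat3wt stroma (6.36 ± 0.23), Stat3dm stroma (6.14 ± 0.25) and Stat3dm tumor (6.05 ± 0.76) were closer than the pooled SD of 0.45. The difference between the tissue differences was 0.84, with an interval of -0.12 to 1.79 and an adjusted p of 0.995.

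Skil, the Smad corepressor also called SnoN, gave 6.58, 6.06 and 6.28 in Stat3dm stroma and 5.98, 5.97 and 6.44 in Stat3wt stroma. Skil tumor signals were 5.47, 6.02 and 6.62 in Stat3dm mice and 6.59, 5.86 and 7.49 in Stat3wt mice. All groups overlapped, and the tumor groups were wide (SD 0.58 in Stat3dm tumor and 0.82 in Stat3wt tumor). Stat3dm minus Stat3wt in tumor was -0.61 ± 0.36 (SE), with an adjusted p of 0.823. The group means ran from 6.65 in Stat3wt tumor to 6.04 in Stat3dm tumor, with every gap between neighbours below the pooled SD of 0.53. Stroma minus tumor over both genotypes was -0.12, with an interval of -0.67 to 0.43, and it turned to 0.07 with quantile normalization and to 0.39 with array spread as a covariate.

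**Figure D3:**
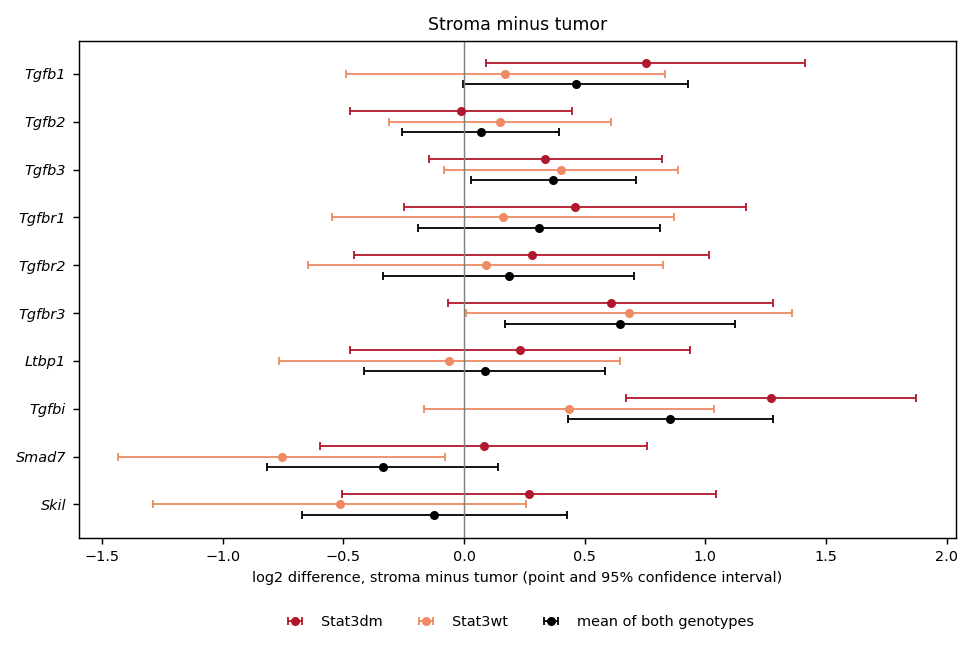
Log2 difference, stroma minus tumor, of the 10 genes in Stat3dm mice, in Stat3wt mice and as the mean of both, with 95% confidence intervals (horizontal axis, log2 units). Tgfbi at 0.86 has the mean furthest from 0, and Smad7 and Skil are the 2 genes with a mean below 0.

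The comparison between tissues gave higher means in stroma for 8 of the 10 genes over both genotypes, with a median difference of 0.25, against 47% of all genes tested and a median of -0.03. At an unadjusted p below 0.05 there were 3 of the 10, Tgfb3, Tgfbr3 and Tgfbi, all higher, against 22.3% of all genes, and 0 of the 10 were without overlap of the 6 stroma and 6 tumor arrays, against 2.05%. In Stat3dm mice 0 of the 10 passed in limma (0 of 16635 genes passed). At an unadjusted p below 0.05 there were 2 of the 10, Tgfb1 and Tgfbi, both higher in stroma, against 9.68% of all genes (4.08% higher). The same 2 genes were those whose Stat3dm tissues did not overlap, against 13.7% of all genes. In Stat3wt mice 0 of the 10 passed (0 of 16635 genes). At an unadjusted p below 0.05 there were Tgfbr3, higher, and Smad7, lower, against 16.7% of all genes, and Smad7 was the 1 gene without overlap, against 23.9% of all (15% lower). The comparisons in the 2 genotypes share no arrays, but each shares its groups with a comparison between genotypes.

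For the comparison the study was built for, Stat3dm against Stat3wt stroma, the 10 genes differed little. Their differences ran from -0.33 for Tgfb3 to 0.27 for Tgfb1, with a median of -0.05, against -0.02 over all genes tested. In limma 0 of the 10 passed, as did 0 of 16635 genes, and all 10 had an adjusted p of 0.999. At an unadjusted p below 0.05 there were 0 of the 10, against 5.07% of all genes, and 0 of the 10 were without overlap, against 10.8%. The intervals leave room for sizeable differences: they reached from -0.39 to 0.93 for Tgfb1, from -0.52 to 0.68 for Tgfbi and from -0.88 to 0.60 for Tgfbr2. Beside this, 5 of 5 pan-leukocyte markers had higher means in Stat3dm stroma, with a median difference of 0.91, each at an unadjusted p below 0.05 and none past the adjusted threshold (smallest adjusted p = 0.0956). Macrophage and monocyte markers had higher means for 11 of 12, neutrophil markers for 7 of 7 and T cell markers for 7 of 7, while fibroblast markers had lower means for 8 of 11, and none passed. Their part in the levels of the 10 genes was not tested.

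In tumor, 8 of the 10 genes had lower means in Stat3dm mice, with a median of -0.35, against a median of -0.01 over all genes tested, of which 48.7% had higher means. Not all signs were stable. Tgfb1 turned from -0.31 to 0.06 with array spread as a covariate, and Tgfb3 from -0.26 to 0.03 with array weights. Tgfbr3, with a higher mean at 0.08, turned to -0.03 with array weights. In limma 0 of the 10 passed, and of all genes 3 did (0.018%). At an unadjusted p below 0.05 there were 2 of the 10, Smad7 and Tgfbi, both lower, against 6.26% of all genes (4.5% lower). Tgfbi differed by -0.76 ± 0.28 (SE; 95% confidence interval -1.36 to -0.16), with an adjusted p of 0.652. Smad7, Tgfbi and Tgfbr2 were without overlap, 3 of 10 and all lower in Stat3dm tumor, against 9.52% of all genes (5.46% lower). With the replicate number as a block 89 genes passed in tumor in place of 3, and 0 of the 10 members. Marker lists ran in both directions between the tumor groups. Macrophage and monocyte markers had lower means in Stat3dm tumor for 9 of 12 (median -0.20, 0 at an unadjusted p below 0.05) and fibroblast markers for 7 of 11 (median -0.10, 2 lower at that level). T cell markers had higher means for 7 of 7 (median 0.41, 3 at that level) and pan-leukocyte markers for 5 of 5 (median 0.09, 0 at that level). No marker passed after adjustment, and their part in the levels of the 10 genes was not tested.

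Over both tissues 0 of the 10 genes passed, while 47 of all genes did (0.283%). Smad7 alone had an unadjusted p below 0.05, at -0.64 ± 0.22 (SE) and an adjusted p of 0.346, against 8.23% of all genes. The test of whether the genotype difference differed between stroma and tumor called 0 of the 10 and 0 of all genes, with 0 of the 10 and 2.41% of all genes at an unadjusted p below 0.05. Its largest values among the 10 were 0.84 for Tgfbi, 0.84 for Smad7 and 0.79 for Skil, each with an adjusted p of 0.995. These 3 are the targets among the 10. Pathway targets outside the 10 went both ways, among them Itga5 at 0.83 and Snai1 at -0.59, each with an adjusted p of 0.995.

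**Figure D4:**
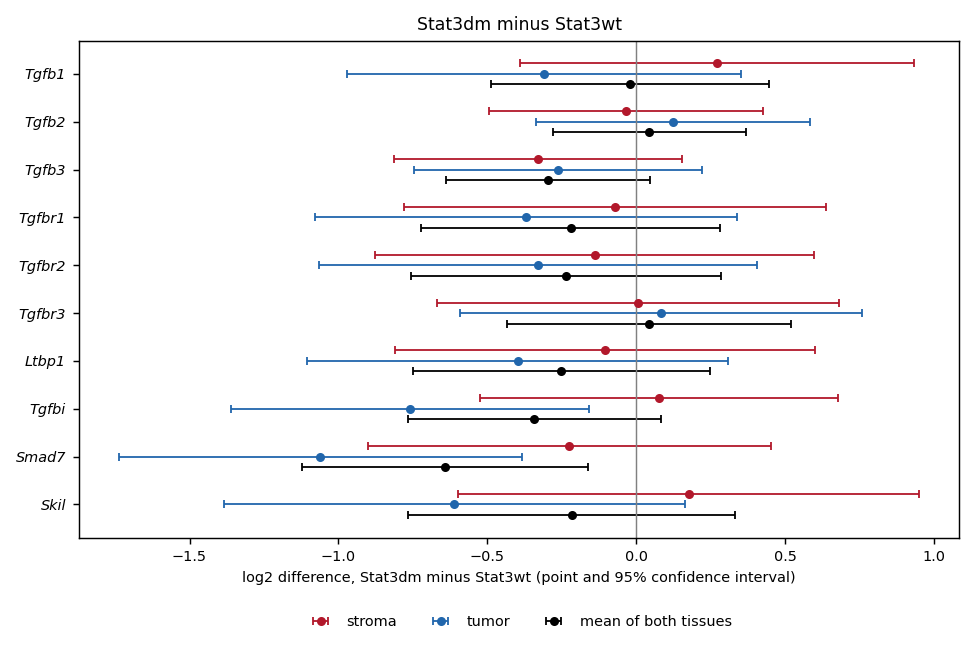
Log2 difference, Stat3dm minus Stat3wt, of the 10 genes in stroma, in tumor and as the mean of both tissues, with 95% confidence intervals (horizontal axis, log2 units). The stroma points lie between -0.33 and 0.27, and in tumor the intervals of Tgfbi (-1.36 to -0.16) and Smad7 (-1.74 to -0.38) lie below 0 before adjustment over all genes.

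A further 68 names of the pathway gave 63 tested genes: 13 of latency and activation, 7 receptors and co-receptors, 16 Smads and their regulators and 27 targets. Between tissues over both genotypes 4 of the 63 passed, all higher in stroma, against 0.848% of all genes. Decorin (Dcn) and biglycan (Bgn), proteoglycans that bind TGF-beta, were higher by 1.29 (adjusted p = 0.0389) and 0.99 (adjusted p = 0.0484). Bgn did not overlap between tissues, a separation found in 2.05% of all genes. Its means were 10.46 ± 0.57 in Stat3dm stroma and 10.49 ± 0.73 in Stat3wt stroma, against 9.55 ± 0.14 in Stat3dm tumor and 9.43 ± 0.37 in Stat3wt tumor. The endothelial co-receptor endoglin (Eng) was higher by 0.71 (adjusted p = 0.0464), and the matrix target Sparc by 0.79 (adjusted p = 0.0400). These calls held in 12 (Dcn), 10 (Bgn), 9 (Eng) and 11 (Sparc) of 23 alternatives. Dcn is also on the fibroblast list and Eng on the endothelial list, as are the targets Col1a1, Col1a2 and Col3a1 on the fibroblast list and Acta2 and Tagln on the smooth muscle list. Means were higher in stroma for 20 of 27 targets, these 5 among the 27 (median 0.40), and for 2 of 16 Smads and regulators (median -0.30), against 47% of all genes. Among genes with lower means in stroma, the smallest p-values were those of the immediate-early target Klf10, at -0.45 (adjusted p = 0.127), the signal transducer Smad2, at -0.49 (adjusted p = 0.168), and the integrin subunit Itgb6, which activates latent ligand, at -0.32 (adjusted p = 0.194). Within Stat3wt mice, Klf10 (-0.73), the cell cycle inhibitor Cdkn1a (-0.87) and Smad3 (-0.48) were lower in all stroma arrays than in all tumor arrays, with adjusted p-values of 0.222, 0.265 and 0.290. In all, 5 of the 63 were lower without overlap in Stat3wt mice, against 15% of all genes. Those of the 63 that were higher without overlap there were Ltbp2, Bgn, Acvrl1, Eng, Snai1, Snai2, Zeb1, Col1a1 and Col3a1. Of all genes, 23.9% were without overlap in either direction.

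Between genotypes 0 of the 63 passed in stroma, in tumor or over both tissues. The smallest adjusted p was that of Smad6, the inhibitory Smad that mainly restrains bone morphogenetic protein signals. Smad6 averaged 4.95 ± 0.12 in Stat3dm stroma and 5.64 ± 0.14 in Stat3wt stroma, and 5.10 ± 0.40 in Stat3dm tumor and 5.85 ± 0.13 in Stat3wt tumor. Stat3dm arrays lay below Stat3wt arrays in each tissue. Of all genes, 10.8% in stroma and 9.52% in tumor were without overlap in either direction. The Smad6 difference over both tissues was -0.72 ± 0.15 (SE), with an adjusted p of 0.0746, and passed in 6 of 22 alternatives. Pmepa1, a target that dampens the receptors' signal, averaged 7.59 ± 0.65 in Stat3dm stroma and 8.53 ± 0.45 in Stat3wt stroma, and 7.82 ± 0.42 in Stat3dm tumor and 8.45 ± 0.17 in Stat3wt tumor. All 6 Stat3dm arrays were below all 6 Stat3wt arrays, at -0.79 ± 0.23 with an adjusted p of 0.202, against 0.535% of all genes without overlap. This difference passed in 1 of 22 alternatives, the replicate number as a block (adjusted p = 0.0377). Over both tissues the homeodomain corepressor Tgif1 followed at -0.45 (adjusted p = 0.259), and transglutaminase Tgm2, which crosslinks matrix, had the smallest p on the other side, at 0.46 (adjusted p = 0.476). In tumor, Thbs1, which activates latent TGF-beta, was at -1.19 and Tgfb1i1, a focal adhesion protein, at -0.52, both without overlap, with adjusted p-values of 0.652 and 0.712. In all, 11 of the 63 were lower without overlap in Stat3dm tumor, against 5.46% of all genes. In Stat3dm stroma 5 of the 63 were lower and 1 was higher without overlap, against 10.8% of all genes in either direction. Of the 16 Smads and regulators, 14 had lower means in Stat3dm mice over both tissues, with a median of -0.20, against -0.01 over all genes.

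The genes whose signals over the 12 arrays followed each member most closely are given by Pearson r, as a description. The arrays share group differences and their own spread. For Tgfb1 they were Lama4 (0.963), the macrophage marker Cd68 (0.957) and Notch2 (0.953). For Tgfbi they were the complement receptor C3ar1 (0.964), Aoah (0.925) and Qk (0.923). Smad7 was followed by Chic2 (0.956), Znrf3 (0.945) and Tcf12 (0.940), and Skil by Thoc2 (0.952), Ccnt2 (0.946) and Baz2a (0.946). Closest to Tgfbr3 were Fli1 (0.932), Calcrl (0.930) and Fbln2 (0.923), to Tgfbr2 Rabac1 (0.946), Itgb5 (0.928) and Zfp521 (0.916), and to Tgfbr1 Dennd1a (0.916), Hpgds (0.915) and Kctd20 (0.911). The remaining sets were Samd14 (0.901), Col12a1 (0.859) and Abcc9 (0.851) for Tgfb3, Nop56 (0.918), Rsu1 (0.907) and Dkk3 (0.898) for Ltbp1, and Cln8 (0.880), Dppa3 (0.880) and Wasf3 (0.877) for Tgfb2.

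The spread of the array moved with the levels of several members. In 23 of 40 pairings of a member with a group, the array of widest spread was also the highest of its group. This was so in 3 of 4 groups for Tgfb1, Tgfbi, Tgfbr2, Ltbp1 and Skil, and in 0 of 4 for Tgfb2. The share of such pairings over all genes was not counted. After each group's mean was subtracted, the level correlated with the SD of the array at 0.905 for Tgfb1, 0.816 for Skil, 0.719 for Tgfbi and 0.690 for Smad7. Each of these genes thus tended to be lower on the arrays of narrower spread within a group. Of the other members, Tgfbr1 was at 0.743, Ltbp1 at 0.663, Tgfbr2 at 0.595, Tgfbr3 at 0.341, Tgfb3 at -0.058 and Tgfb2 at -0.119. Over the 12 arrays as they stood r was 0.346 for Tgfb1, 0.762 for Skil, 0.033 for Tgfbi and 0.728 for Smad7. Array spread also ran higher in tumor. The SD was 1.75 to 1.91 in Stat3wt tumor and 1.60 to 1.76 in Stat3wt stroma. It was 1.65 to 1.85 in Stat3dm tumor and 1.65 to 1.72 in Stat3dm stroma. The covariate thus partly follows the tissue label, and a fit with it cannot separate the 2. With array spread as a covariate, stroma minus tumor over both genotypes was 1.18 for Tgfbi in place of 0.86, 0.92 for Tgfb1 in place of 0.46 and 0.03 for Smad7 in place of -0.34. In Stat3wt mice the same covariate gave 0.82 for Tgfb1 in place of 0.17, 0.89 for Tgfbi in place of 0.44 and 0.75 for Tgfbr1 in place of 0.16. The values of Ltbp1 and Skil changed sign there. The covariate turned Ltbp1 to 0.46 in place of -0.06 and Skil to 0.21 in place of -0.52, and left Smad7 at -0.24 in place of -0.75. None of these Stat3wt values passed, with adjusted p-values of 0.314 to 0.947.

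**Figure D5:**
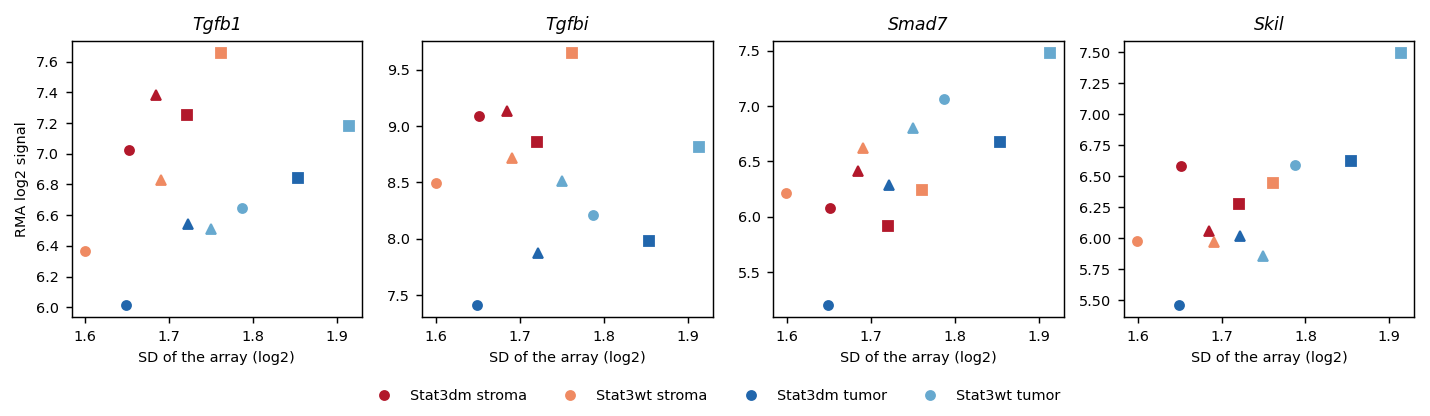
RMA log2 signal of Tgfb1, Tgfbi, Smad7 and Skil (vertical axes) against the SD of all log2 values on the array (horizontal axis), with circle, triangle and square for replicates 1, 2 and 3. Within Stat3wt stroma, Stat3dm tumor and Stat3wt tumor the square, the widest array, is the highest point for Tgfb1, Tgfbi and Skil.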

How the data were processed

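For 41345 probe sets the authors deposited log2 signals. Per the submitters' processing notes these came from RMA in Affymetrix Expression Console 1.3.1. RNA from fixed tissue was amplified with a kit for degraded RNA, per the labels' protocols. The log2 values were used as deposited. In the platform annotation 23521 probe sets carried 1 gene symbol. The 1814 with several symbols and the 16010 without an entry were not used. A gene with several probe sets was represented by the one of highest mean over the 12 arrays, and genes in the lowest 25% by mean (under 3.65) were filtered out. In limma 3.58.1 under R 4.3.3, a model with 1 mean per group was fitted to the 12 arrays, and 7 contrasts were tested by eBayes and Benjamini-Hochberg adjustment within each over 16635 genes. A gene is called, or passes, at an adjusted p below 0.05. Adjusted p-values in the text are from this fit unless another is named. The script was tested on simulated data. Members, gene lists, tests and alternatives were chosen with earlier results of these data known. Text names all members, called genes and, per contrast, pathway genes with the 3 smallest p-values in each direction (in part), and the 3 genes most alike to each member.

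The labels number samples 1 to 3 in each group but do not say what a number shares. As a check, deviations from group means of same-numbered samples were correlated. They correlated at 0.123, 0.157 and 0.298 between Stat3dm stroma and Stat3dm tumor, and at 0.317, 0.150 and 0.692 between Stat3dm tumor and Stat3wt tumor, all above 0.1, so the fit with the replicate number as a block is given beside those 2 comparisons. In Stat3wt tissues (0.439, -0.004 and 0.513) and between the genotypes in stroma (0.152, -0.040 and 0.113) not all were. Samples of different number ran from -0.293 to 0.125 between Stat3dm stroma and Stat3dm tumor, and from -0.663 to 0.593 between the tumor groups. Replicate 3 was the widest array of every group, so the check cannot tell a shared number from shared array spread.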

Additional observations from a re-analysis of the deposited data

How the results depend on the processing

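Of 1620 differences of members recomputed under alternatives, 14 passed the threshold where the reported value did not, 13 no longer passed, and 8 others moved by at least the pooled SD. Signs turned in 86, all of them differences that had not passed. The 13 are all Tgfbi between tissues over both genotypes. The cause of these moves was not tested. Stat3dm against Stat3wt stroma, with 0 genes reported, had 1 with quantile normalization, 45 with array weights, 13 with array spread as covariate and 28 with the replicate block. Tumor, with 3, had 303, 14 and 89 under the last 3 and 5 with a robust variance prior, and array weights called 1 member. The interaction had 3 with array weights. The mean over tissues, with 47, had 90 with quantile normalization, 17 with median centring, 430 with array weights, 166 with array spread, 21 without the 2 widest arrays, 292 with the replicate block and 13 with genotype and number as a random block. Stroma against tumor in Stat3wt mice, with 0, had 1004 with array weights, and 304, 5 and 138 with the replicate block, the random block and a fixed block of genotype and number. In Stat3dm mice, with 0, it had 33 with quantile normalization, 611 with array weights, 114 with array spread, and 86, 62 and 152 with those blocks. Members called there were 2 with array spread and 1 with each of the other 5. Over both genotypes, with 425 genes and 1 member, there were 168 and 0 with median centring, 2637 and 3 with array weights, 264 and 2 with array spread, 0 and 0 without the 2 widest arrays, and 2187 and 2 with the replicate block. Quantile normalization called 2 members and the robust prior 0, and the random and fixed blocks called 1648 and 1876 genes. The pairing by replicate block changed the call of 2 members, Tgfbi in Stat3dm mice and Tgfbr3 over both genotypes.

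Leaving out 1 array at a time gave 0 to 2 genes called between genotypes in stroma, 0 to 7 in tumor, 16 to 69 over both tissues and 0 for the interaction. Between tissues it gave 0 to 8 in Stat3wt mice, 0 to 22 in Stat3dm mice and 0 to 1296 over both genotypes, with 0 to 1 members called in each of the last 2. Tgfbi in Stat3dm mice passed without Stat3wt stroma replicate 3 (adjusted p = 0.04998). The fixed block of genotype and number and the gene-by-gene form of array weights, whose default form stopped before converging, were chosen after seeing the data. A fixed block of genotype and number gives no value between genotypes. With 3 arrays a group, intervals of about the size of the differences limit what can be seen.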
